A study of Mus musculus with 4 samples.

Results

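The entries mir-103-1, mir-103-2 and mir-107 are the 3 microRNA genes that lie inside the pantothenate kinase genes of the mouse. They were selected by name, as 3 of the 626 entries of a small RNA sequencing table, and all 3 passed the filter on low counts that kept 367 entries. The table compares embryoid bodies (EBs), the aggregates in which embryonic stem cells differentiate, with undifferentiated embryonic stem cells (ESCs). The EBs were on day 8, after 2 days without leukemia inhibitory factor (LIF) in hanging drops of 1000 cells and 6 more days in suspension, with 20% serum. The ESCs were on day 0, kept undifferentiated with LIF at 100 U/ml and 10% serum. Both groups came from CGR8, a mouse stem cell line that needs no feeder cells, labelled with a C57BL/6 background, 129P2/OlaHsd as its donor strain and passages 5 to 13. It is 1 line, and the labels do not say whether the 2 samples of a group came from separate cultures.

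MicroRNAs are short RNAs cut from hairpin precursors, and they lower the output of messenger RNAs that match their seed, bases 2 to 8 of the mature strand. The miR-103 and miR-107 pair is known from lipid and glucose metabolism. In mice it reduces insulin sensitivity through the membrane protein caveolin-1, and in human cancer cells it targets Dicer, the enzyme that cuts microRNAs from their hairpins. The host genes encode pantothenate kinases, which phosphorylate vitamin B5 in the first and rate-limiting step of coenzyme A synthesis.

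The hairpins show which part the 3 genes share. Capitals mark the mature 3p strand, and sequences here and below are from RefSeq (GRCm38.p6).
mir-103-1 hairpin: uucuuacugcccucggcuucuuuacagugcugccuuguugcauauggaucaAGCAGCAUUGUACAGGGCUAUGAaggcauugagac
mir-103-2 hairpin: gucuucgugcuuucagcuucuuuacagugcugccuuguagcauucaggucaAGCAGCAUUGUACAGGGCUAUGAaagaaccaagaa
mir-107 hairpin: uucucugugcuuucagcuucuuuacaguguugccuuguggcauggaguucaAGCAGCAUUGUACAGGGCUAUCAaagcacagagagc
The hairpins of mir-103-1 and mir-103-2 were identical at 69 of 86 aligned positions (80.2%), and that of mir-107 matched mir-103-1 at 70 of 87 (80.5%) and mir-103-2 at 73 of 87 (83.9%). The loops and flanks differ, whereas both mir-103 genes give the same 3p strand. That of mir-107 differs by 1 base of 23, G22C, with miR-103 first and positions counted from the 5′ end. A read that starts at the first base and covers only the first 21 bases fits all 3 genes. On the other arm, the 5p strands differ by G1A between mir-103-1 and mir-103-2 and by C16U between mir-103-2 and mir-107. The table gives 1 count per gene and does not separate the arms.

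Each hairpin lies on its host's strand and inside an intron. On GRCm38 (GENCODE M21), mir-103-1 spans 35782396 to 35782481 on chromosome 11 (plus strand) in Pank3, mir-103-2 spans 131288052 to 131288137 on chromosome 2 (plus strand) in Pank2, and mir-107 spans 34820687 to 34820773 on chromosome 19 (minus strand) in Pank1. In the annotation's principal transcript of each host, which has 7 exons, the microRNA sits in intron 5. These introns are 1740 bases long in Pank3, 5801 bases in Pank2 and 7282 bases in Pank1, and the hairpins begin 688, 454 and 326 bases after the exon upstream. No exon of these transcripts overlaps a hairpin.

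To place the pair among its relatives, the mature strands of the wider group of microRNAs that share the stretch AGCAGC are given next, with the seed in capitals.
miR-103-3p: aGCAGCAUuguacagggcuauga
miR-107-3p: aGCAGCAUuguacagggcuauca
miR-15a-5p: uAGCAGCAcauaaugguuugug
miR-15b-5p: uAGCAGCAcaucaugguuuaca
miR-16-5p: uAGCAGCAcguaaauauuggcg
miR-195a-5p: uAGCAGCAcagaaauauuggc
miR-322-5p: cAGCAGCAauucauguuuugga
miR-497a-5p: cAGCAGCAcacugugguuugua
miR-503-5p: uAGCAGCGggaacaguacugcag
The shared stretch of 6 bases starts at base 1 in miR-103 and miR-107 and at base 2 in the other 7, so the seeds are offset by 1 base. The seed GCAGCAU was found in 2 of the 1679 mature microRNAs of the RefSeq table, miR-103-3p and miR-107-3p. The seed AGCAGCA, of 6 of these relatives, was found in 10, and AGCAGCG in miR-503-5p alone.

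The total microRNA count was 139104 and 139360 in the EB samples, against 557250 and 557643 in the ESC samples, so the EB samples were shallower by about 4-fold. The 2 samples of each group differed by less than counting error, with a chi-square per degree of freedom of 0.284 for the EBs and 0.235 for the ESCs, where separate libraries give about 1. Each pair was counted as 1 sample, by its mean, and the comparison has no replicate check and no p-value. Intervals are at 95% and cover counting error only, and PCR copies counted as reads are not separate molecules. Of the microRNAs that mark cell types, the miR-290 to miR-295 entries of naive stem cells held 52.0% of EB counts and 53.0% of ESC counts, although 4 of these 6 were at least 2-fold lower in the EBs after TMM and 1 at least 2-fold higher (median log2 fold -1.12). Those of miR-302 and miR-367, from the later epiblast stage, held 6.53% of EB counts and 0.0341% of ESC counts. Neural entries held 0.188% of EB counts and 0.957% of ESC counts. These shares count all 3 copies of mir-124 and all 3 of mir-9, and mir-124 made up most of them. Blood entries held 0.114% and 0.253%, and fibroblast entries 0.0442% and 0.243%. Of the 2 blood entries that were measured, 1 was at least 2-fold higher in the EBs after TMM and 1 at least 2-fold lower. Of 5 muscle entries looked for, only 2 were in the table, and liver was represented by 1 entry. Muscle and liver entries had 1 EB count and 0 ESC counts each, and 0 of them were measured. The part of cell makeup in what follows was not tested. In such bulk samples, fewer cells of a type and less RNA per cell cannot be told apart.

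All 3 entries took a smaller share of the EB counts than of the ESC counts. The entry mir-103-1 had 821 and 817 counts in the EB samples, against 4978 and 4974 in the ESC samples. As CPM (microRNA counts scaled to a total of 1000000 per sample), that was 5902 and 5863 in the EB samples and 8933 and 8920 in the ESC samples. The EB columns were the lower ones in CPM. The columns of either group were 4 counts apart, where counting error between independent libraries has an SD of 40.5 counts in the EBs and 99.8 in the ESCs, so the agreement of paired columns is no replicate evidence for this or any other entry.

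The second copy, mir-103-2, had 827 and 825 counts in the EB samples, against 4977 and 4978 in the ESC samples. Its CPM was 5945 and 5920 in the EB samples and 8931 and 8927 in the ESC samples, lower in the EB columns again. It ranked number 22 of 626 entries by count in the EBs and number 18 in the ESCs, and mir-103-1 ranked number 24 and number 19. The miR-103 entries were thus among the abundant microRNAs of both cell states.

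The third gene, mir-107, was far less abundant. It had 93 and 99 counts in the EB samples, against 608 and 611 in the ESC samples. Its CPM was 669 and 710 in the EB samples and 1091 and 1096 in the ESC samples, and it ranked number 118 in the EBs and number 89 in the ESCs. The EB columns were again lower in CPM, and counting error was wider, with exact Poisson intervals of 75.1 to 114 counts for EB replicate 1 and of 561 to 658 for ESC replicate 1.

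**Figure D1:**
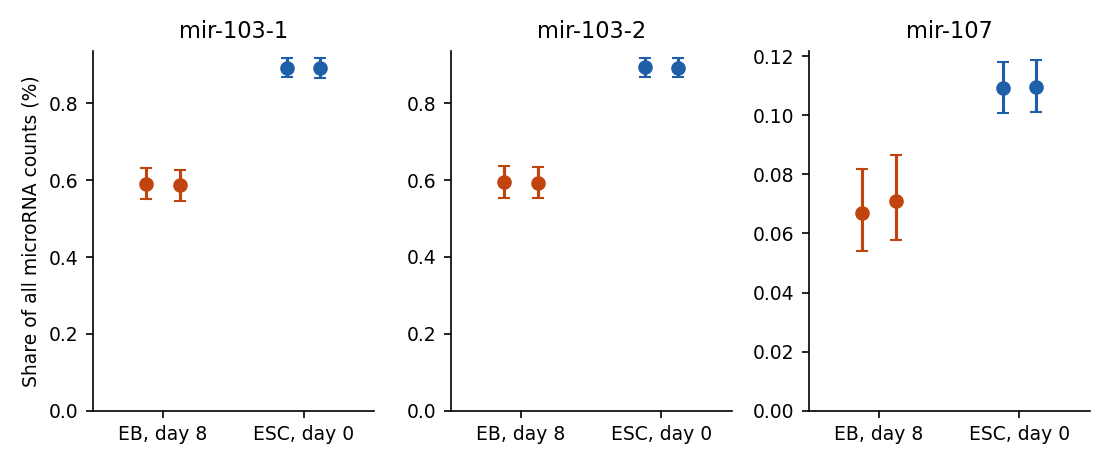
Share of all microRNA counts (vertical axis, %, with its own scale in the mir-107 panel) of each entry in the 2 EB and the 2 ESC samples. Points are samples and bars exact Poisson intervals at 95%; the EB points of mir-103-1 sit near 0.588% and the ESC points near 0.893%, those of mir-107 near 0.0689% and 0.109%.

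Together the 3 entries held 1.25% of EB counts (exact Clopper-Pearson interval 1.19 to 1.31) and 1.89% of ESC counts (1.86 to 1.93). Both mir-103 rows stand for the same strand, and whether its reads were counted in both or divided between them is not stated. With the mean of the mir-103 rows plus mir-107, the shares were 0.660% (0.618 to 0.704) in the EBs and 1.00% (0.976 to 1.03) in the ESCs.

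A fold between libraries also depends on how they are scaled. Scaled with TMM, a mean of log ratios trimmed of its extremes, mir-103-1 was 1.85-fold lower in the EBs (interval 1.71 to 1.99), mir-103-2 was 1.83-fold lower (1.70 to 1.97) and mir-107 was 1.93-fold lower (1.55 to 2.42). As log2 folds of EB over ESC these were -0.88, -0.87 and -0.95, and that of their summed counts was -0.88 (-0.96 to -0.81). The interval of the sum is too narrow if each miR-103 read was counted in both rows, which is not stated. With the mean of the mir-103 rows plus mir-107, the log2 fold was -0.89 (-0.99 to -0.79). None of the 3 reached a 2-fold difference, where 30.2% of the 367 measured entries were at least 2-fold lower in the EBs and 33.5% at least 2-fold higher. All 3 log2 folds were below 0, as were 48.5% of all measured entries. The counting intervals of all 3 lay wholly below 0, as they did for 34.9% of measured entries. Counted from the lowest fold, mir-107, mir-103-1 and mir-103-2 stood at positions 116, 121 and 122 of 367. The median log2 fold over the measured entries was 0.07, with quartiles at -1.40 and 1.35. The members were therefore lower by an amount that many entries of the table reached.

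**Figure D2:**
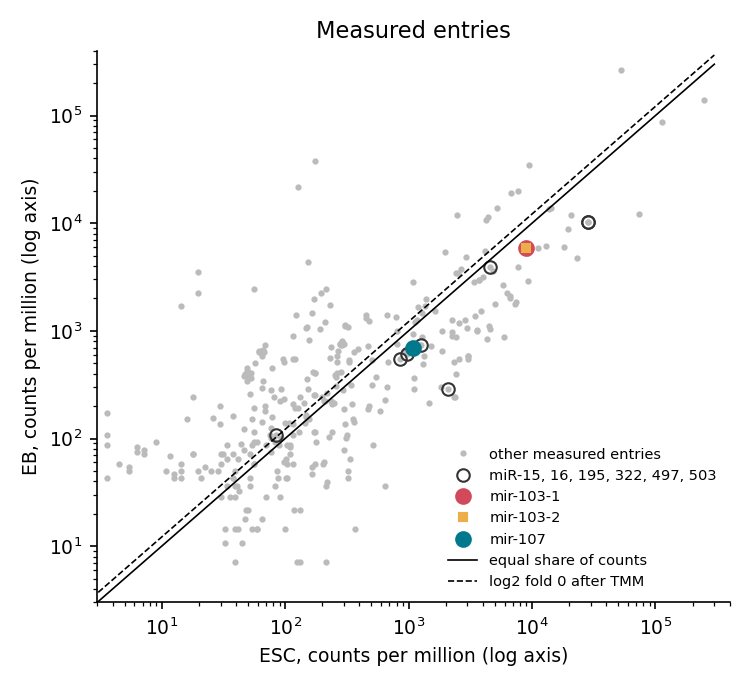
CPM of each measured entry in the EBs (vertical, log axis) against the ESCs (horizontal, log axis), means of 2 columns. The 3 members lie under both lines, the solid one for equal shares of counts and the dashed one for a log2 fold of 0 after TMM, with mir-103-1 and mir-103-2 drawn over each other.

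All 3 members were lower in the EBs under each scaling tried, but their distance from the 2-fold limit was not fixed. TMM set each log2 fold 0.28 below the value from library totals. With library totals mir-103-1, mir-103-2 and mir-107 stood at -0.60, -0.59 and -0.67, under 2-fold, where 26.4% of entries were at least 2-fold lower. With TMM and no filter on low counts they stood at -1.03, -1.02 and -1.10, and all 3 passed 2-fold, as did 31.8% of the 422 entries with a fold. In the quantile-normalized values deposited by the authors the members separated. There mir-103-1 and mir-103-2 stood at -0.47 and -0.36, while mir-107 stood at -1.38 and passed 2-fold, as 31.6% of entries did.

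**Figure D3:**
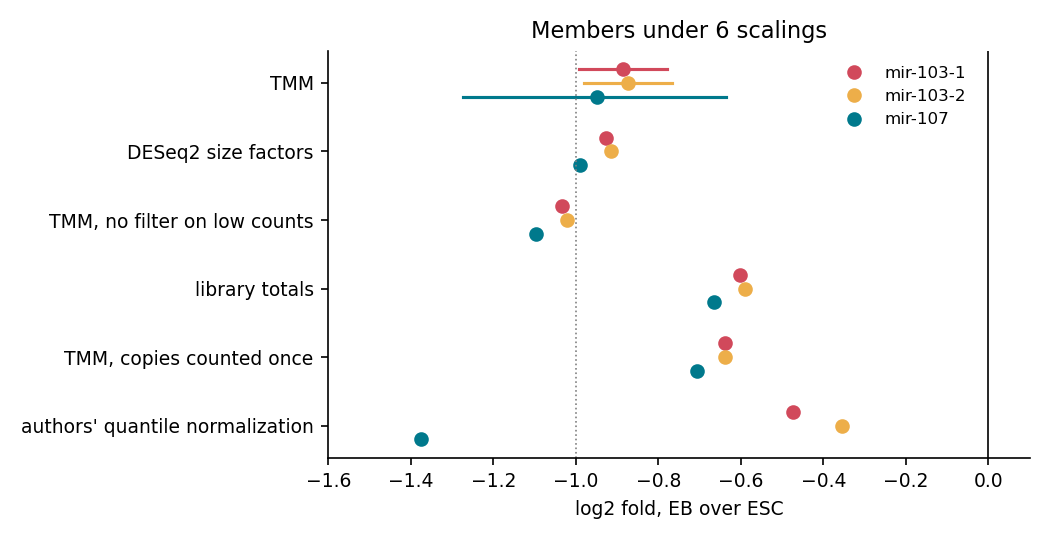
log2 fold of EB over ESC (horizontal axis) of the 3 members under 6 scalings (rows), with counting intervals at 95% for TMM and the dotted line at a 2-fold lower level. The 3 members lie close together in every row except the authors' quantile normalization, where mir-107 is at -1.38 and the mir-103 entries at -0.47 and -0.36.

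Whether miR-107 and miR-103 differed in their response can be read from counts inside each library, where no scaling enters. The ratio of mir-107 to the mean of the mir-103 rows was 0.113 and 0.121 in the EB samples, against 0.122 and 0.123 in the ESC samples. The EB ratio was 0.953 times the ESC ratio, with an exact conditional interval of 0.751 to 1.20, so no difference in the ratio could be detected with these counts, and the interval still holds differences up to those bounds. Put as a share, mir-107 made up 10.5% of the pair in the EBs (8.55 to 12.6) and 10.9% in the ESCs (10.1 to 11.8). Here too the mean of the mir-103 rows stood for miR-103. If miR-103 reads were divided between its rows, these ratios and shares would be lower in both groups. The comparison of the groups would not move, as the sum of the rows gave the same log2 difference of -0.07. How reads that fit both miR-103 and miR-107 were assigned is not stated in the sources used here, so a ratio of these rows may differ from that of the molecules, in either group.

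The authors' normalized values gave another picture of the same ratio. In them mir-107 was 0.0588 and 0.0628 of mir-103 in the EB samples and 0.119 in both ESC samples, which makes the EB ratio 0.513 times the ESC ratio. The 2 sets of values are tied by what each count was worth. In the EB samples a count of mir-107 became 1.49 and 1.52 normalized units and a count of mir-103-1 became 2.77 and 2.79. In the ESC samples both entries received 0.613 to 0.645 units per count. Quantile normalization gives an entry the value that goes with its rank in its sample, whatever its count.

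**Figure D4:**
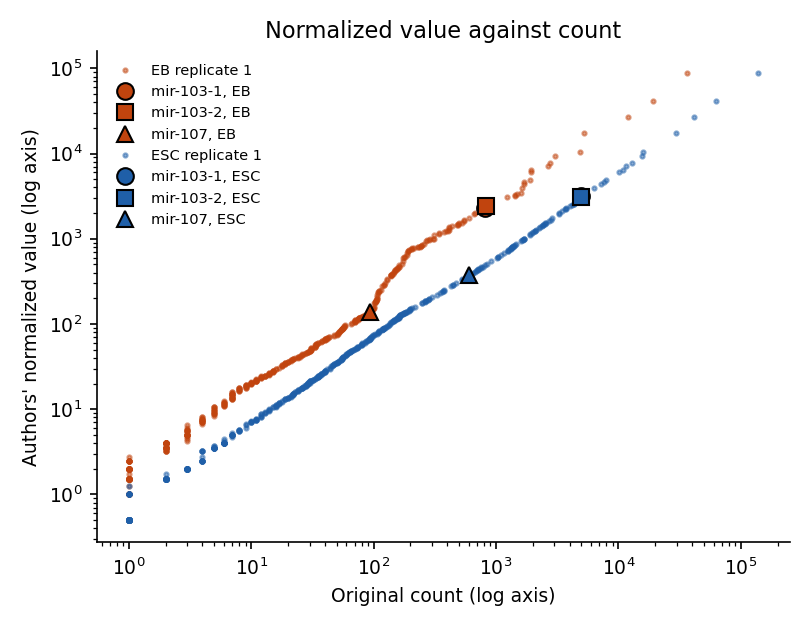
The authors' normalized value (vertical, log axis) against the original count (horizontal, log axis) for each entry of EB replicate 1 and ESC replicate 1. The EB points climb steeply just above mir-107, at 93 counts, and reach mir-103-1 and mir-103-2 at 821 and 827 counts; the ESC points run nearly straight through all 3 members.

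Near-equal counts were common among numbered copies in this table. Both rows stand for the same 3p strand, and they differed by 1.01-fold in the EBs and by 1.00-fold in the ESCs. Of 32 microRNAs with several numbered copies and at least 10 counts in each copy in 1 of the groups, the copies lay within 1.1-fold of each other for 18 in the EBs, for 20 in the ESCs and for 15 in both. The mir-16 rows had 1441.5 and 1442.5 counts in the EBs against 15702.5 and 15867.5 in the ESCs. The mir-19b rows had 1921 and 1907 in the EBs against 7907 and 7617 in the ESCs. At the other end, mir-466f-3 and mir-466f-4 had 101 and 8.5 counts in the EBs (11.9-fold) and 263 and 55 in the ESCs, and mir-297a-1 and mir-297a-4 had 10.5 and 76.5 in the EBs (7.29-fold) and 43 and 66.5 in the ESCs. How reads of a shared strand were divided among rows is not stated in the sources used here. What Pank3 and Pank2 each contributed therefore cannot be told apart, and the folds of mir-103-1 and mir-103-2 are not separate evidence.

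The summed counts of the wider AGCAGC group were a smaller share of the EB total, although its entries varied. They held 3.94% of EB counts and 8.54% of ESC counts, or 2.31% and 4.82% with numbered copies averaged, and mir-16 was the largest contributor. Besides the members, 8 of its entries were measured, and 1 more had too few counts. After TMM 4 of them were lower by 2-fold or more and 0 higher, beside 30.2% and 33.5% of all measured entries, and 2 of the 4 were the copies mir-16-1 and mir-16-2 of the same mature strand. The median log2 fold of the 8 was -1.002, beside 0.07 for all measured entries. Among all 11, members included, 4 were lower by 2-fold or more; library totals gave 3 (26.4% of all entries), and quantile-normalized values gave 7 (31.6% of all entries). The steepest was mir-15a, with a mean of 40 counts in the EBs against 1173 in the ESCs and a log2 fold of -3.16 (-3.65 to -2.70). The entries mir-16-1 and mir-16-2 stood at -1.73 and -1.74, and mir-195a, with 103 EB counts and 700 ESC counts, at -1.05 (-1.36 to -0.75). The X-linked neighbours mir-322 and mir-503 stood at -0.91 and -0.96, within the members' intervals, mir-15b at -0.52 (-0.66 to -0.38; 0.07 in the quantile-normalized values) and mir-497a at 0.07 (-0.87 to 0.93).

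Inside each library the relatives did not all keep their ratio to miR-103, taken as the mean of its rows, as miR-16 was. For miR-16, which restrains the cell cycle, the ratio to miR-103 was 1.75 in the EBs against 3.17 in the ESCs, a log2 difference of -0.86 (-0.99 to -0.72). For miR-15a, made from the same transcript as mir-16-1, it was 0.0486 in the EBs against 0.236 in the ESCs, a log2 difference of -2.28 (-2.78 to -1.81). The other way, miR-15b, made with mir-16-2 from the Smc4 gene, had a ratio of 0.657 in the EBs against 0.511 in the ESCs, a log2 difference of 0.36 (0.19 to 0.53). The ratios of miR-195a, miR-322 and miR-503 to miR-103 differed by -0.17, -0.03 and -0.08, with intervals that included 0 and together ran from -0.50 to 0.34. On 15 EB counts and 47 ESC counts, miR-497a stood at 0.95, and its interval also included 0 (-0.00 to 1.82). Of these 8 ratios, counting miR-107, 3 therefore lay outside counting error.

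**Figure D5:**
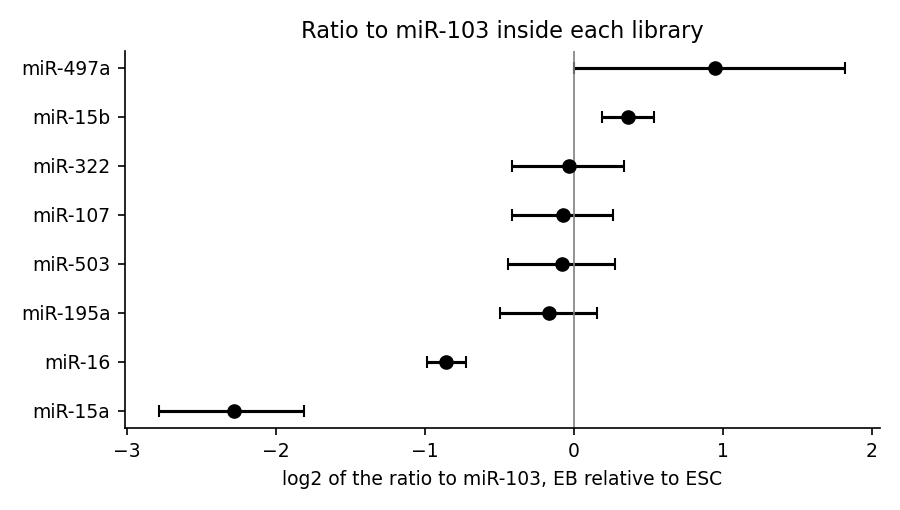
log2 of the ratio of each relative to miR-103, EB relative to ESC (horizontal axis), from mean counts with exact conditional intervals at 95%. The intervals of miR-15a and miR-16 lie below 0 and that of miR-15b above it; miR-107, miR-195a, miR-322, miR-503 and miR-497a reach 0.

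With miR-16 and miR-15a lower against miR-103, the pair took a larger part of the group. The 3 members held 31.7% of the group's counts in the EBs (30.5 to 33.0) and 22.2% in the ESCs (21.8 to 22.6). With numbered copies averaged, these parts were 28.5% (27.0 to 30.1) in the EBs and 20.8% (20.3 to 21.3) in the ESCs.

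Other microRNAs linked to lipid and glucose metabolism were spread in both directions. Of 18 such entries in the table, 16 were measured. After TMM 5 of the 16 were lower in the EBs by 2-fold or more, 1 was higher by as much and 10 stayed under that limit; their median log2 fold was -0.62. The count of lower ones is near the 30.2% of all measured entries, and 33.5% of those were higher by 2-fold or more. The lower ones were mir-27a at -2.91, mir-143 at -2.87, mir-378a at -2.42, mir-27b at -1.80 and mir-34a at -1.27. The entry mir-378a, made from the mitochondrial regulator gene Ppargc1b, had 140 and 148 counts in the EB samples against 2537 and 2538 in the ESC samples, a log2 fold of -2.42 (-2.67 to -2.18). The entry mir-34a, whose gene is activated by p53, had an interval of -1.40 to -1.14, but stood at -0.98 with library totals and at -0.62 in the quantile-normalized values. The higher one was mir-335, made from the imprinted gene Mest, with 180 and 188 counts in the EB samples against 249 and 259 in the ESC samples and a log2 fold of 1.25 (0.97 to 1.53).

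The miR-26 genes, which like the members lie in introns of a gene family, that of the Ctdsp phosphatases, were lower by less than 2-fold. The log2 folds of mir-26a-1, mir-26a-2 and mir-26b were -0.63, -0.62 and -0.70 after TMM. In the quantile-normalized values mir-26a-1 and mir-26a-2 stood at 0.12 and 0.09 and mir-26b at -1.22, so the less abundant mir-26b parted from mir-26a there, as mir-107 did from mir-103. The miR-29 entries mir-29a, mir-29b-1, mir-29b-2 and mir-29c stood at 0.28 to 0.48, with intervals that included 0, and in the quantile-normalized values all but mir-29c were below 0. The entry mir-33, from the sterol regulator gene Srebf2, had 7 and 3 counts in the EB samples against 22 and 16 in the ESC samples, mir-370 had 3 and 5 against 21 and 23, and mir-378b had 6 and 6 against 12 and 11. The intervals of these 3 included 0.

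Entries with a protein-coding host were spread on both sides of the members. Among the 110 measured ones on the same strand as a host other than Sfmbt2, 43 were lower by 2-fold or more, 20 were higher by as much and 47 were within that limit; their median log2 fold was -0.49. Sfmbt2 was kept apart, which was not planned, because its intron holds a large repeat cluster of microRNAs. With it the balance turned round, with 43 lower, 72 higher and 61 within the limit of 176 entries and a median of 0.37, beside 30.2% lower and 33.5% higher over the whole table. The 177 entries placed outside such genes had a median of -0.18, with 62 lower and 48 higher by 2-fold or more. The whole-table shares include the Sfmbt2 entries, so they are no like background for the 110. Shares of the table without Sfmbt2 were not computed, so the balance of the 110 is not read as a trait of entries with a host.

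The 5 microRNAs closest to the pair in level, by Euclidean distance between log2 CPM values in the EBs and the ESCs (2 points each), were mir-21a, mir-183, mir-708, mir-34a and mir-191. The closest, mir-21a, had a CPM of 5925 in the EBs and 11282 in the ESCs, at a distance of 0.23, and mir-191 was at 0.86. After TMM their log2 folds ran from -1.07 for mir-183 to -1.86 for mir-191. Entries close to the pair in both levels are bound to have a similar fold, so these folds are not a separate result.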

How the data were processed

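The members and lists were chosen with earlier results of these data known. Small RNA from 2 EB and 2 ESC samples was sequenced on an Ion Torrent PGM from about 100 ng each, per the labels' protocols, which describe no molecular identifiers. For the aligner, counter and genome build, nothing is stated in the labels or headers. Per the file headers, the authors' original counts are raw reads per entry. The normalized signal was deposited by the authors too, and its 4 columns hold the same set of values, as quantile normalization gives. The transformed values, folds and p-values in the table were not used.

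Original counts were blank for mir-664 and stood 1 row too low below it, over 169 rows. They were moved up, which raised their rank correlation with the normalized values from between 0.355 and 0.541 to between 0.995 and 0.998. The displaced counts of mir-99b were recovered as the only 1 of 7280 candidate sets that gave all normalized values. Rows of the members lie above this point.

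A chi-square test set the paired columns of a group against each other, using entries whose pair summed to 10 or more, and they were then averaged. The design named edgeR's quasi-likelihood test only if the columns differed, so no test is reported. Entries were measured if filterByExpr kept them (minimum count 10, minimum total 15), and TMM used these. Folds are of mean counts with exact conditional binomial intervals, or none when both groups had at most 3 counts, and 3 counts is a CPM of 21.5 in the EBs and 5.38 in the ESCs. Entries were placed by name in GENCODE M21, which held 602 of 626. Named entries were the members, those of the 2 lists with at least 10 counts in a group, the 5 nearest entries and 4 copy pairs besides mir-103. Fold calculations were tested on counts drawn with known changes. Software was Python 3.11.15 with scipy 1.17.1, numpy 2.4.6, matplotlib 3.10.9 and pandas 2.3.3, and R 4.3.3 with edgeR 4.0.16, DESeq2 1.42.0 and limma 3.58.1.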

Additional observations from a re-analysis of the deposited data

How the results depend on the processing

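All 3 members and their sum were lower in the EBs under each alternative. The log2 folds of mir-103-1, mir-103-2 and the sum were -0.60, -0.59 and -0.60 with library totals, -1.03, -1.02 and -1.03 with no filter, and -0.47, -0.36 and -0.45 in the authors' quantile-normalized values, where mir-107 was at -1.38. With numbered copies averaged before scaling, an alternative chosen after seeing the data, they were -0.64, -0.64 and -0.65. There TMM moved nothing from library totals (-0.00 on the log2 scale). Leaving out a replicate gave -0.94 to -0.61 for mir-103-1, -0.93 to -0.60 for mir-103-2, -1.005 to -0.72 for mir-107 and -0.94 to -0.61 for the sum; the values nearest to 0 came without EB replicate 2, when the TMM shift was -0.01 in place of -0.28. The members' part of EB counts was 1.40% in the quantile-normalized values, and the log2 ratio of mir-107 to mir-103 was -0.96 there, against -0.07 from counts. An edgeR fit that took the 4 columns as separate samples gave -0.88, -0.87 and -0.95, and with the replicate block also -0.88, -0.87 and -0.95. The replicate numbers were not taken to pair samples, because the columns of a group agree within counting error. The number of entries with a fold differed between settings, so the ranges that follow are by number and not by share. Entries at least 2-fold higher ranged from 102 of 300 (copies averaged) to 141 of 367 (library totals). Those at least 2-fold lower ranged from 84 of 300 (copies averaged) to 134 of 422 (no filter). The EB depth limits mir-107 most, at 93 and 99 counts.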
